A study of Homo sapiens with 6 samples.

Results

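The 10 genes described here make, sense, move and break down heme: HMOX1, HMOX2, BLVRA, BLVRB, BACH1, FLVCR1, ALAS1, UROD, FECH and CPOX. They were taken by symbol from a table of 26789 genes, in which each symbol occurred once, and were put together because HMOX1 had the largest difference between the groups compared below. The values of that comparison therefore chose the set, and for the 10 genes they are given as a description. No p-value is given for any of the 10, and counts of them past a threshold, or the standing of HMOX1 above other genes, follow from the choice. RNA was measured in SK-N-SH, an established line of human neuroblastoma cells known to hold cells of more than 1 state, labelled wild type, after culture in EMEM/F12 medium with fetal bovine serum. The control group (3 samples) received medium for 6 h and the dopamine group (3 samples) received medium with dopamine, the catecholamine neurotransmitter, for 6 h. The labels print its concentration as 40 M, a unit that looks incomplete and is not interpreted here. All 6 samples share the line, the medium and the 6 h, no further agent or allele is named, and the series' design text also mentions SH-SY5Y, a subline of SK-N-SH, in place of the line on the sample labels. The labels do not say that the 3 samples of a group were separate cultures, so each p-value is set against the scatter of these 6 samples alone, and that scatter may be technical. In RNA from bulk cultures, a lower share of cells that express a gene and less of its RNA per cell cannot be told apart.

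Heme is an iron-bearing porphyrin that serves as the prosthetic group of cytochromes and other enzymes. Its synthesis starts and ends in the mitochondrion: ALAS1 makes the first dedicated precursor in cells outside the erythroid lineage, UROD and CPOX modify the porphyrin ring, and FECH inserts iron. Heme oxygenases, the inducible HMOX1 and the constitutive HMOX2, open the ring and release iron, carbon monoxide and biliverdin, which biliverdin reductase turns into bilirubin. BLVRA is the reductase of the IX alpha form of biliverdin, and BLVRB is that of the IX beta form and a flavin reductase. BACH1 is a repressor of HMOX1 transcription that binds heme and is then removed from DNA and degraded, and FLVCR1 exports heme. Neurons and neuroblastoma lines are known to induce HMOX1 under oxidative stress.

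The library totals used to scale FPKM (fragments per kilobase of gene length, scaled to the library total) were 19393512 to 24231634 fragments, as recovered from the deposited values. Which reads these totals include is not known. A level of 1 FPKM was worth 19.4 to 24.2 fragments in a gene that is 1 kb long. Of 11791 genes with a mean of at least 1 FPKM, 12 passed limma at a Benjamini-Hochberg adjusted p of 0.05, 10 higher and 2 lower with dopamine (18 and 9 after quantile normalization). Marker genes of both known cell states of neuroblastoma were expressed. Their summed level was 276 to 319 FPKM in control and 269 to 307 FPKM with dopamine for 8 adrenergic genes, and 1157 to 1301 FPKM in control and 1155 to 1207 FPKM with dopamine for 7 mesenchymal genes. None of the 14 tested was called (limma), and 4 had an unadjusted p under 0.05: the mesenchymal factor SNAI2 had 16.4 ± 1.11 FPKM in control and 22.7 ± 2.16 with dopamine, YAP1 6.69 ± 1.27 and 8.87 ± 1.24, the adrenergic factor PHOX2A 82.7 ± 2.20 and 69.5 ± 4.21, and GATA2 26.1 ± 2.27 and 22.6 ± 0.879. Their log2 differences of 0.46, 0.39, -0.25 and -0.20 became 0.11, 0.09, -0.06 and -0.07 after the GC and length correction described below. Over all tested genes 32.5% had an unadjusted p under 0.05. A higher mean with dopamine was seen for 4 of 7 tested adrenergic and 5 of 7 tested mesenchymal genes, and for 7076 of all 11791 tested genes. The median log2 difference was 0.05 for the adrenergic and 0.19 for the mesenchymal genes, and 0.08 and -0.04 after that correction. Of 9 erythroid markers looked for, the deposited table held 3. The hemoglobin gene HBA1 had 0.0527, 0.0494 and 0 FPKM in control and the erythroid factor KLF1 0, 0.0778 and 0.0911. Both stood at 0 in all 3 dopamine libraries. EPOR, the erythropoietin receptor, was at 4.87 ± 0.303 FPKM in control and 5.2 ± 0.112 with dopamine (SD, n = 3). Of 8 macrophage markers looked for, the deposited table held 3, which summed to 0.657 to 0.728 FPKM in control and 0.424 to 0.728 FPKM with dopamine. Most of that sum was CSF1R. PTPRC stood at 0 in 5 libraries and at 0.0049 FPKM in control 2, and CD14 was at 0.0656 to 0.0933 FPKM in control and 0.0248 to 0.0512 with dopamine. Of 3 RNAs retained in the nucleus, used here as a sign of RNA quality, MALAT1 had 1.16, 1.07 and 0.855 FPKM in control and 1.49, 1.36 and 2.56 with dopamine, NEAT1 1.03 ± 0.172 and 1.51 ± 0.494, and KCNQ1OT1 at most 0.0105 in any library. Their part in the results below was not tested. The libraries also differed in base composition. Over all tested genes, the slope of a library's log2 values on GC content, per 10 percentage points of GC and relative to the mean library, was 0.02, 0.11 and 0.22 in control 1, 2 and 3 and -0.03, -0.06 and -0.26 in dopamine 1, 2 and 3. No slope of 1 group lay within the range of the other. Values after a correction for GC content and gene length are therefore given for the members and for most of the other genes named. The correction was fitted to each library without regard to its group. It would therefore also take out any effect of dopamine that follows GC content or length. Since the slopes were separated by group, such an effect and a technical difference cannot be told apart here.

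HMOX1 (ENSG00000100292.12, hg19 22:35776354-35790207) is the inducible heme oxygenase. Its level was 32.0, 38.2 and 28.9 FPKM in the control libraries and 426, 470 and 392 FPKM in the dopamine libraries. The groups were far apart, with the lowest dopamine library above the highest control library by more than the spread inside either group. The means were 33.0 ± 4.74 and 429 ± 39.5 FPKM (SD, n = 3 each), a ratio of 13.0. On the log2(FPKM + 0.5) scale used for all fits the difference was 3.69 (SE 0.11), against a median of 0.08 over all tested genes, and the gene next to it in size, the immunoglobulin pseudogene IGHVIII-38-1, differed by 1.79. In 19 alternative settings the difference of HMOX1 lay between 3.60 and 3.79.

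The values of HMOX1 rest on 1748, 2225 and 1436 fragments in control and on 21230, 21941 and 20138 with dopamine. Counting alone would give a coefficient of variation of 2.39% in control and 0.69% with dopamine, while the observed values were 14.3% and 9.19%, so the spread between samples exceeded the counting error in both groups. Among the 26789 genes ordered by FPKM, HMOX1 stood at position 1392, 1150 and 1552 in the control libraries and at 45, 43 and 48 in the dopamine libraries. It made up 0.0123 to 0.0161% of all FPKM in control and 0.170 to 0.196% with dopamine. HMOX1 was thus already expressed without dopamine, and was among the most abundant genes with it.

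**Figure D1:**
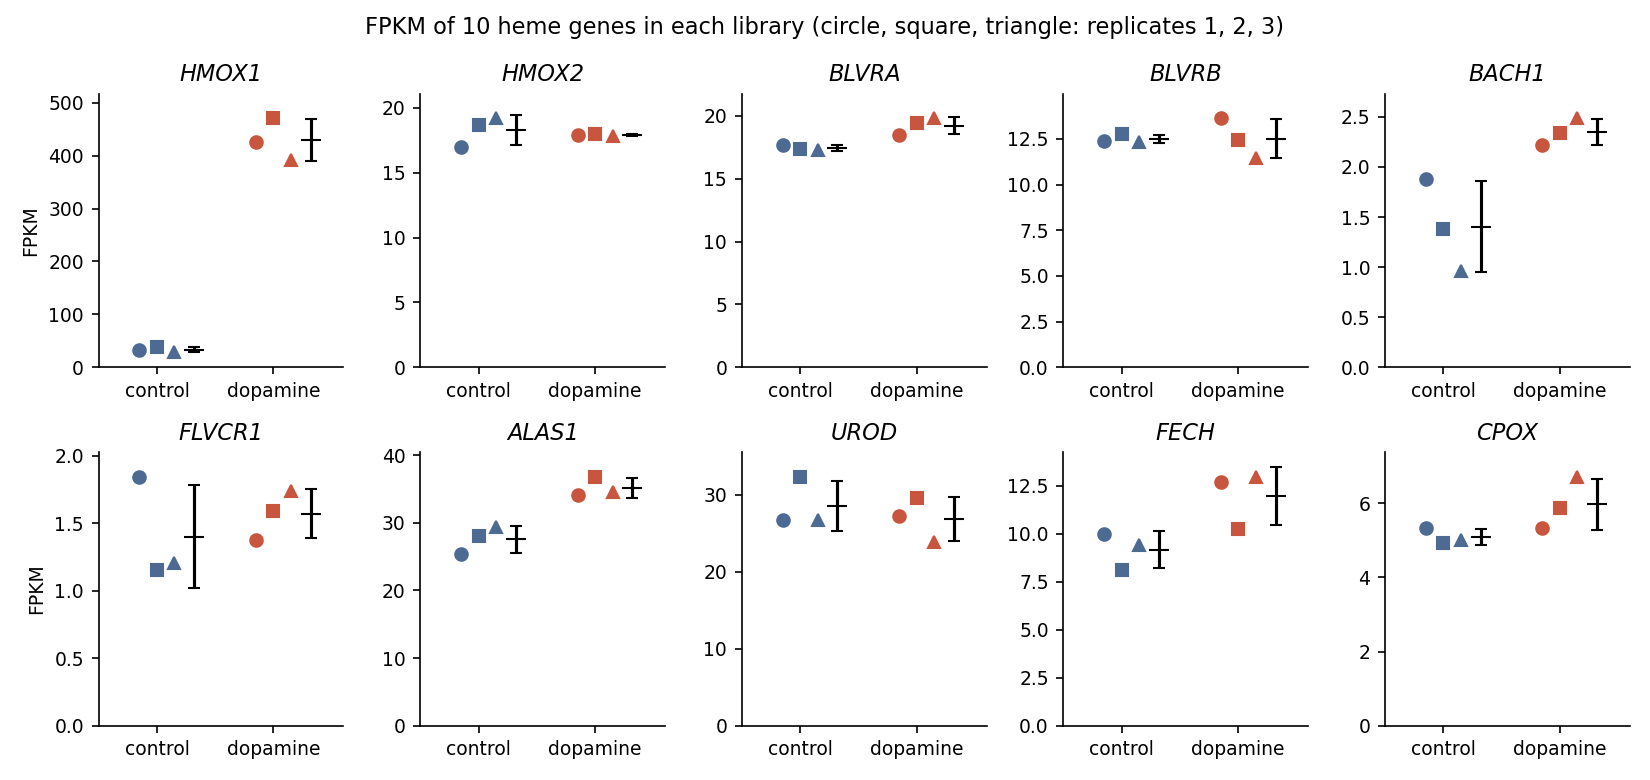
FPKM (vertical axis, linear from 0, a scale of its own for each gene) of the 10 heme genes in the 3 control and 3 dopamine libraries. Each symbol is 1 library, and the horizontal tick with bars is the mean ± SD (n = 3). HMOX1 sits between 28.9 and 38.2 in control and between 392 and 470 with dopamine, while the means of the other 9 genes differ by ratios of 0.939 to 1.67.

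The plot of FPKM by library sets the members side by side. Of the 10 members, all of which passed the filter on low values, 1 was called higher (HMOX1) and 9 were not called, where 0.0848% of all tested genes were called higher, 0.017% lower and 0.102% in either direction. HMOX1 was also the 1 member called after the GC and length correction (0.225% of all tested genes) and with voom on recovered fragments (0.153%). At an unadjusted p of 0.05 the members counted 4, all higher, against 24.4% of all tested genes higher, 8.05% lower and 32.5% in either direction, and 2 after the correction, against 16.8%. The count of called members was 3 without control replicate 1, which added BACH1 and FECH, and 4 with sample quality weights, which added BACH1, ALAS1 and FECH. The dopamine libraries all lay above the control libraries for 6 members (HMOX1, BLVRA, BACH1, ALAS1, FECH and CPOX), as they did for 24.4% of all tested genes (38.4% did not overlap in either direction), and the groups overlapped for HMOX2, BLVRB, FLVCR1 and UROD. Since the set was chosen on this contrast, nothing is read from these counts. The median difference of the members was 0.17 on the log2 scale, and 0.09 after the GC and length correction, against 0.08 and -0.00 over all tested genes.

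HMOX2 (ENSG00000103415.7, hg19 16:4524691-4560348), the constitutive heme oxygenase, had 17.0, 18.7 and 19.2 FPKM in control and 17.9, 18.0 and 17.8 FPKM with dopamine. The dopamine values all fell inside the control range. The means were 18.3 ± 1.15 and 17.9 ± 0.104 FPKM, a difference of -0.03 (SE 0.08) on the log2 scale, and 0.05 (SE 0.06) after the GC and length correction, so its sign was not stable. HMOX2 overlaps NMRAL1, a gene on the opposite strand with a mean of 17.5 FPKM, and no source used here says whether the authors' counting took the strand into account.

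The balance of the 2 heme oxygenases was different in the 2 groups. HMOX1 stood at 1.88, 2.04 and 1.5 times the FPKM of HMOX2 in control and at 23.8, 26.1 and 22.0 times with dopamine. Since HMOX2 was nearly level, the shift of this ratio followed HMOX1: it made up 64.2 ± 3.67% of the summed FPKM of both genes in control and 96.0 ± 0.33% with dopamine (SD, n = 3). Both FPKM values are per length, but the comparison between the genes is approximate. The lengths recovered from the deposited values were 2405 bases for HMOX1 and 3793 for HMOX2. The longest reference transcripts have 1822 and 2147 bases. The overlap of HMOX2 with NMRAL1 adds to the uncertainty of its level.

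Promoter sequence was at hand for 9 of the 10 members in the RefSeq table of GRCh38.p14, and not for HMOX1. The 250 bases before each annotated start, 12 windows in all, were searched on both strands for 4 motifs: TGANTCA, the core bound by AP-1 and, in a longer element, by BACH1 and NRF2 with small MAF proteins; TGACNNNGC, the core of the antioxidant response element; CACGTG, the E-box bound by USF factors; and the palindromic element bound by NRF1. The first pair can overlap each other. In all 35116 RefSeq windows of this length these motifs occur in 6.57%, 10.9%, 6.34% and 5.07%. Of the 12 windows, 9 held none of them and 3 held 1 each. Those 3 and the window of ALAS1, the first enzyme of synthesis, are shown because BACH1 and NRF2 are known to act on HMOX1 through such elements, and are printed 5′ to 3′ on the strand of the gene, with the motif in capitals. A match describes letters only. BACH1 and HMOX2 have windows at more than 1 annotated start, and their windows not printed here held none of the 4 motifs. The printed window of BACH1 (plus strand) is chr21:29298672-29298921, with TGANTCA at -48 to -42 from the start. The printed window of HMOX2 (plus strand) is chr16:4474486-4474735, with CACGTG at -28 to -23. The window of FECH (minus strand) is chr18:57586703-57586952, with TGACNNNGC, read on the other strand, at -38 to -30. The window of ALAS1 (plus strand) is chr3:52197833-52198082 and holds none of the 4 motifs.
BACH1: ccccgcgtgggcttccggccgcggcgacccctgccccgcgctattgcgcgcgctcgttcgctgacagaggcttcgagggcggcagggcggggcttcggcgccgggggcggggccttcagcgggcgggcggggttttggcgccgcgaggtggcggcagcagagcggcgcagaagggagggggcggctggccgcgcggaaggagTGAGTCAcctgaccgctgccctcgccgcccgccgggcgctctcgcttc
HMOX2: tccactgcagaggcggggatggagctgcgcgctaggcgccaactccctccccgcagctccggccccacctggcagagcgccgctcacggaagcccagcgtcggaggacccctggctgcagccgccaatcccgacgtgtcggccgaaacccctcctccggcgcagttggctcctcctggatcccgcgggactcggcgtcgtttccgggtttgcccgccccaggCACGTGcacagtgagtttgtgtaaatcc
FECH: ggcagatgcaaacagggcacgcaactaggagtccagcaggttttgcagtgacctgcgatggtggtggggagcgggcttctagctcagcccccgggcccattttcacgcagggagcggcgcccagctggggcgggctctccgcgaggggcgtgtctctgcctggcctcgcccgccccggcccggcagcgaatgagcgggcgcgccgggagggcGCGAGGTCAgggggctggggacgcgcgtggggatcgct
ALAS1: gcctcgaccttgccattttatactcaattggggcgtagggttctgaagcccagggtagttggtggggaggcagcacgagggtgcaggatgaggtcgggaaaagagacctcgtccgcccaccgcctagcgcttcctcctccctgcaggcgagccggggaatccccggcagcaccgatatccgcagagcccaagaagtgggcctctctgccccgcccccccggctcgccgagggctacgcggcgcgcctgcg

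BLVRA, the biliverdin IX alpha reductase, and BLVRB, the biliverdin IX beta and flavin reductase, differed little between the groups. BLVRA (ENSG00000106605.6, hg19 7:43798279-43846939) had 17.7, 17.3 and 17.3 FPKM in control and 18.5, 19.4 and 19.8 FPKM with dopamine. These groups did not overlap, and the log2 difference was 0.14 (SE 0.07), from means of 17.4 ± 0.234 and 19.2 ± 0.689 FPKM. BLVRB (ENSG00000090013.5, hg19 19:40953696-40971747) had 12.4, 12.8 and 12.3 FPKM in control and 13.6, 12.4 and 11.5 FPKM with dopamine. Here the dopamine libraries lay on both sides of the control libraries, with a log2 difference of -0.00 (SE 0.09) that became 0.09 (SE 0.06) after the GC and length correction. HMOX1 reached 1.1 ± 0.15 times the summed FPKM of both reductases in control and 13.5 ± 1.14 times with dopamine. That sum compares levels only, since the reductases act on different forms of biliverdin.

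BACH1 (ENSG00000156273.11, hg19 21:30566392-31003071), the heme-binding repressor whose promoter window with TGANTCA is printed above, was expressed at a low level. It had 1.88, 1.38 and 0.959 FPKM in control and 2.22, 2.34 and 2.49 FPKM with dopamine. The groups did not overlap, but the control libraries were wide apart: the highest was close to the dopamine libraries and the lowest well under them. The means were 1.41 ± 0.459 and 2.35 ± 0.133 FPKM, a ratio of 1.67. The control values rest on 329, 258 and 153 fragments, and their coefficient of variation of 32.7% was well above the 6.70% that counting gives. The log2 difference was 0.61 (SE 0.18).

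The size of the BACH1 difference depended on the processing. BACH1 has a GC content of 38.6%, the lowest of the 10 members, and its control values fell in the order in which the GC slope of the libraries rose, from control 1 to control 3. After the GC and length correction its log2 difference was 0.19 (SE 0.10), and in voom on the recovered fragments, with no such correction, it was 0.79 (SE 0.21). The correction took GC content and length together, and the longest reference transcript of BACH1 has 5769 bases, so the 2 were not separated. The part of base composition in the difference as deposited was not tested. The table also lists 5 low genes that lie within BACH1 on the same strand, among them LINC00189 at a mean of 0.769 FPKM and GAPDHP14 at 0.613 FPKM, which could share reads with it.

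**Figure D2:**
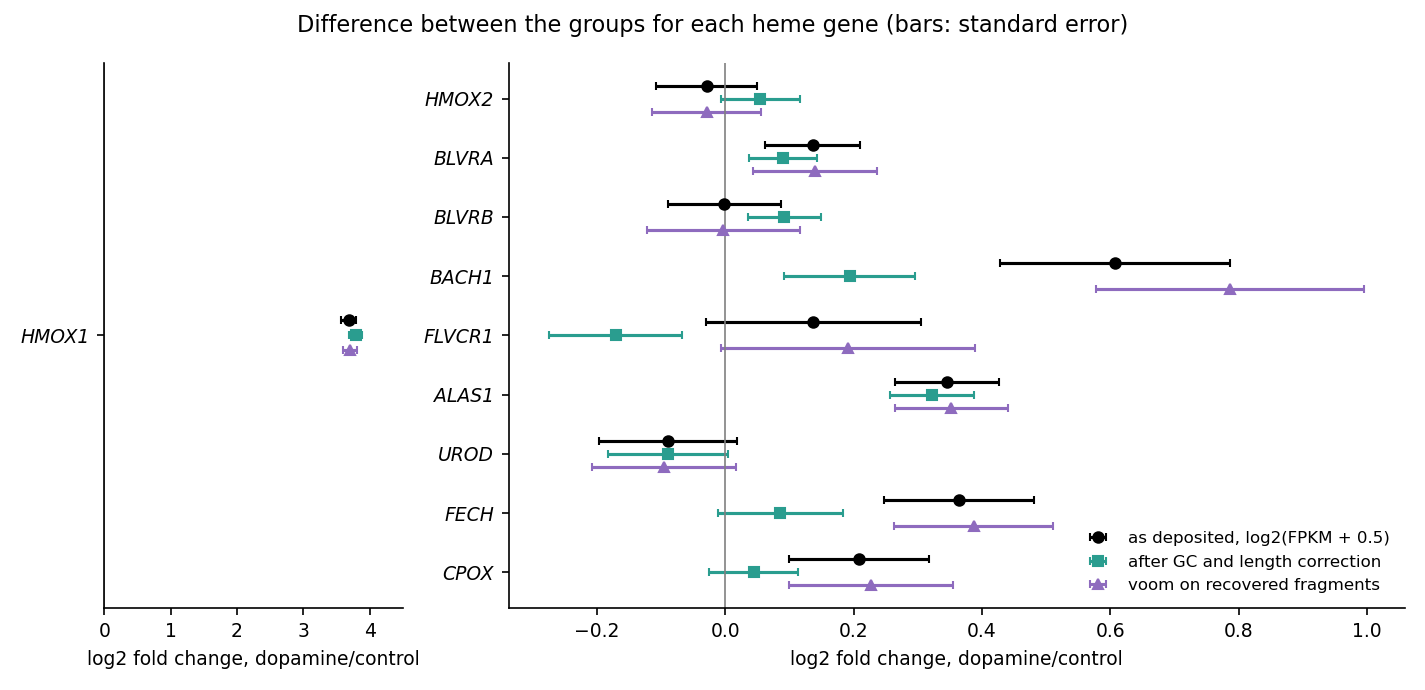
Log2 fold change of dopamine against control (horizontal axis, HMOX1 on a scale of its own at the left) for the 10 heme genes. Circles are the values as deposited, squares those after the GC and length correction and triangles those of voom on recovered fragments, with bars of 1 standard error; BACH1 moves from 0.61 to 0.19 with the correction and FLVCR1 from 0.14 to -0.17, while HMOX1 stays between 3.69 and 3.79.

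FLVCR1 (ENSG00000162769.8, hg19 1:213031597-213072705), the exporter of heme, was the other low member. It had 1.84, 1.15 and 1.21 FPKM in control and 1.38, 1.59 and 1.74 FPKM with dopamine. The highest of all 6 values was in control 1, and the groups overlapped. The log2 difference was 0.14 (SE 0.17), smaller than its error, and it turned to -0.17 (SE 0.10) after the GC and length correction, as the plot of fold changes shows. Its values rest on 161 to 270 fragments, and the table's FLVCR1-AS1, with a mean of 1.97 FPKM, carries the name of an antisense partner.

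Among the 4 enzymes of synthesis, ALAS1, FECH and, only just, CPOX were higher in every dopamine library than in any control library. The same held for 24.4% of all tested genes. ALAS1 (ENSG00000023330.10, hg19 3:52232102-52248343), the step that limits the rate in cells outside the erythroid lineage, had 25.3, 28.0 and 29.3 FPKM in control and 34.1, 36.8 and 34.5 FPKM with dopamine. The gap between the groups was wider than the range within the dopamine group. The means were 27.6 ± 2.03 and 35.1 ± 1.45 FPKM, a ratio of 1.27 and a log2 difference of 0.35 (SE 0.08). With the GC and length correction the value was 0.32 (SE 0.07), so ALAS1 kept most of its difference, and over the 19 alternatives it ranged from 0.26 to 0.40.

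FECH (ENSG00000066926.6, hg19 18:55215515-55254004), which inserts the iron, had 9.98, 8.13 and 9.42 FPKM in control and 12.7, 10.2 and 13.0 FPKM with dopamine. The lowest dopamine library stood only just above the highest control library. The log2 difference was 0.36 (SE 0.12) as deposited and 0.09 (SE 0.10) after the GC and length correction, against a GC content of 44.3%. So FECH and ALAS1, alike in size as deposited, were not alike after the correction.

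UROD (ENSG00000126088.8, hg19 1:45477819-45481247) decarboxylates the first ring-shaped intermediate. It had 26.7, 32.3 and 26.7 FPKM in control and 27.2, 29.5 and 23.8 FPKM with dopamine. Its groups overlapped, and the log2 difference was -0.09 (SE 0.11), the same after the correction. CPOX (ENSG00000080819.2, hg19 3:98239976-98312567) acts on the product of UROD. It had 5.34, 4.93 and 5.00 FPKM in control and 5.34, 5.88 and 6.71 FPKM with dopamine. The lowest dopamine library, at 5.344 FPKM, was barely above the highest control library, at 5.3425. The log2 difference of 0.21 (SE 0.11) became 0.04 (SE 0.07) after the correction. CPOX overlaps CLDND1, a gene on the same strand with a mean of 7.08 FPKM. The 4 enzymes together had 70.4 ± 3.0 FPKM in control and 79.9 ± 2.30 FPKM with dopamine, and ALAS1 stood at 0.971 ± 0.118 times UROD in control and 1.32 ± 0.115 times with dopamine. Against the sum of these 4 enzymes, HMOX1 was at 0.468 ± 0.0552 in control and 5.37 ± 0.340 with dopamine.

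The order of the members by FPKM was nearly kept. In control it ran HMOX1, UROD, ALAS1, HMOX2, BLVRA, BLVRB, FECH, CPOX, BACH1, FLVCR1. The libraries of HMOX1 and UROD, of UROD and ALAS1, of HMOX2 and BLVRA, and of BACH1 and FLVCR1 overlapped, so these neighbours cannot be ordered beyond their spread. With dopamine it ran HMOX1, ALAS1, UROD, BLVRA, HMOX2, BLVRB, FECH, CPOX, BACH1, FLVCR1, with an overlap only between BLVRB and FECH. HMOX1 was thus level with the first enzymes of synthesis in control and was alone at the top with dopamine.

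**Figure D3:**
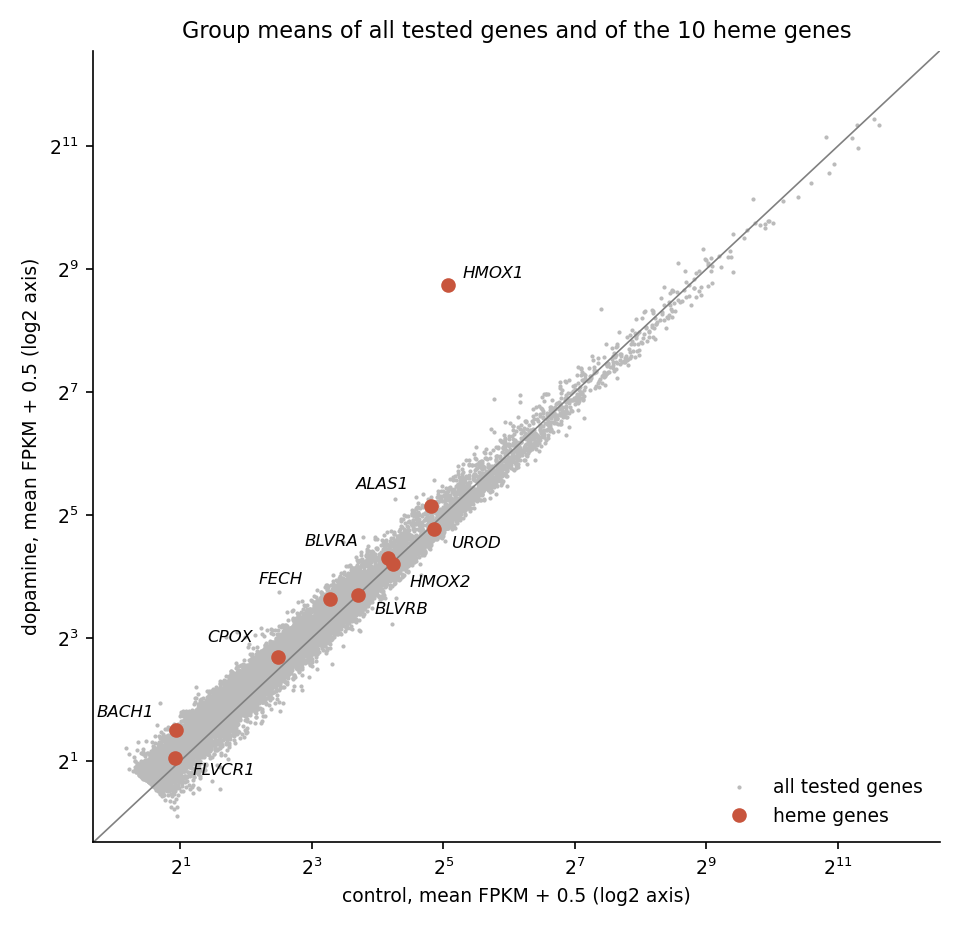
Mean FPKM + 0.5 of each tested gene in control (horizontal axis) and with dopamine (vertical axis), both on log2 axes, with the line of equal means. Small points are the 11791 tested genes and large points the 10 heme genes; HMOX1, at 33.0 and 429 FPKM, lies apart from all the others, and the other 9 lie inside the cloud.

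The plot of group means places the members among all tested genes. The 5 protein-coding genes whose profile over the 6 samples was nearest that of HMOX1 were DNAJB9, GCLM, SLC7A11, MAT2A and HERPUD1, among 10266 genes ranked. The measure was the root mean square difference of log2(FPKM + 0.5) after subtracting the control mean, which was 1.70 for DNAJB9, 1.73 for GCLM, 1.74 for SLC7A11, 1.82 for MAT2A and 1.85 for HERPUD1. A flat profile would stand at 2.61 and the median gene stood at 2.55. Since HMOX1 differed so much between the groups, this distance mostly follows the size of a gene's dopamine difference. The log2 differences of the 5 genes, in the same order, were 1.31, 1.25, 1.25, 1.12 and 1.09. The ranking is thus given as a description, and no shared regulation is read from it. DNAJB9, a chaperone of the endoplasmic reticulum, had 2.73 ± 0.557 FPKM in control and 7.59 ± 1.77 with dopamine, and MAT2A, which makes S-adenosylmethionine, had 53.9 ± 2.59 and 118 ± 4.68. HERPUD1, a factor in the degradation of misfolded proteins, had 10.6 ± 1.06 and 23.1 ± 0.798 FPKM.

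Beyond the 10 members, 7 lists of heme-related genes held 61 genes, of which 54 were tested. Of these 54, 2 rose (GCLM and TXNRD1), none fell and 52 were not called, which is 3.7%, where 0.102% of all tested genes were called, 0.0848% higher. The lists were written with earlier results of these data known. Their share of calls and the p-values of their genes are therefore a description, and no enrichment is read from them. Leaving out control replicate 1 gave 13 calls, leaving out control replicate 2 gave 0 (17 at an unadjusted p of 0.05 in limma), and leaving out control replicate 3, dopamine replicate 1 or dopamine replicate 3 gave 1. The GC and length correction gave 4 calls, of GCLM, TXNRD1, SLC7A11 and POR, and voom on recovered fragments gave 3. The median difference was 0.14 on the log2 scale, with a higher mean in 37 of the 54, and 0.03 after the correction. Over all tested genes the medians were 0.08 and -0.00, with a higher mean in 7076 of 11791 as deposited. No shift of the heme genes is read from the count of 37.

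As the plot of the heme lists shows, both calls lay in the list of 11 targets shared by BACH1 and NRF2, of which 10 were tested, 2 rose and 8 were not called. GCLM, the modifier subunit of the enzyme that limits glutathione synthesis, had 5.95, 5.18 and 4.38 FPKM in control and 12.3, 12.2 and 14.4 FPKM with dopamine, and TXNRD1, thioredoxin reductase, had 21.2, 18.6 and 16.6 FPKM in control and 34.8, 34.4 and 43.8 FPKM with dopamine. All dopamine libraries of both genes were above all control libraries. The log2 difference was 1.25 (SE 0.12, limma adjusted p = 0.0063) for GCLM and 0.98 (SE 0.12, adjusted p = 0.020) for TXNRD1. SLC7A11, the cystine importer, had 1.13 ± 0.302 FPKM in control and 3.36 ± 0.753 with dopamine (limma adjusted p = 0.075, and 0.020 after the GC and length correction). NQO1, a quinone reductase, stood at 84.4 ± 6.35 and 108 ± 6.18 FPKM, and FTH1, the ferritin heavy chain, at 1807 ± 75.5 and 2261 ± 55.6 FPKM, both with a limma adjusted p of 0.11. After the correction the log2 difference of GCLM was 0.82, of TXNRD1 0.72, of SLC7A11 0.78 instead of 1.25, of NQO1 0.14 instead of 0.36 and of FTH1 0.26 instead of 0.32. The list's median was 0.38 as deposited and 0.22 after the correction.

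**Figure D4:**
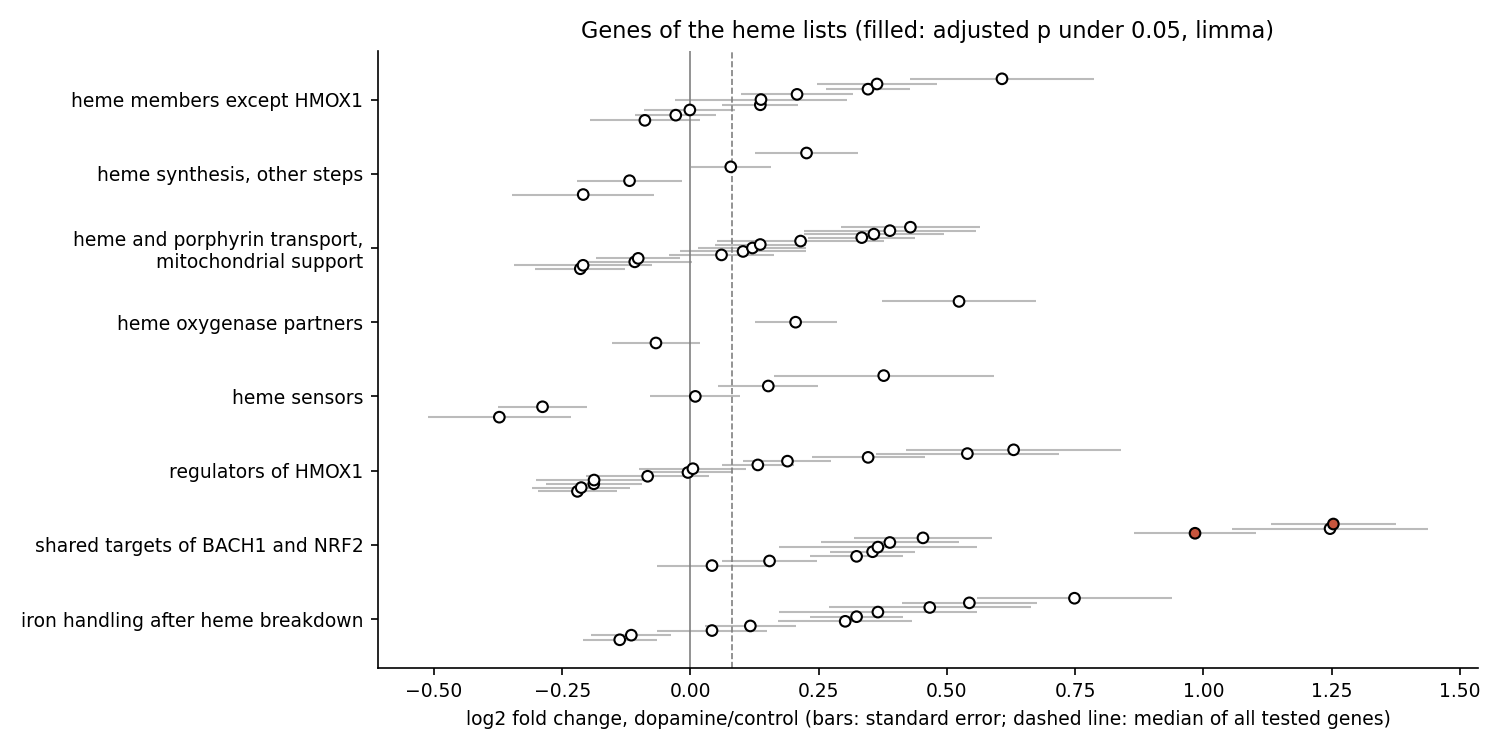
Log2 fold change of dopamine against control (horizontal axis) for the tested genes of the 7 lists and, in the top row, for the 9 members other than HMOX1. Each point is 1 gene with a bar of 1 standard error, filled where the limma adjusted p is under 0.05, and the dashed line is the median of all tested genes, 0.08; the filled points are GCLM at 1.25 and TXNRD1 at 0.98.

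None of the 4 other enzymes of heme synthesis tested was called (limma). An unadjusted p under 0.05 was seen for 1, which was higher, where 32.5% of all tested genes had one, 24.4% higher. ALAD, the second step, had 5.29 ± 0.358 FPKM in control and 6.27 ± 0.360 with dopamine (limma adjusted p = 0.15). UROS, which closes the porphyrin ring, had 16.0 ± 0.465 and 17.0 ± 0.774 FPKM, and PPOX, the step before FECH, 2.93 ± 0.0355 and 2.49 ± 0.473. The groups overlapped for both UROS and PPOX, while for ALAD the dopamine libraries were all above the control libraries. After the correction the log2 difference was 0.22 for ALAD instead of 0.23, 0.01 for UROS instead of 0.08 and -0.07 for PPOX instead of -0.21.

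Of the 3 partners of heme oxygenase tested, none was called as deposited. An unadjusted p under 0.05 (limma) was seen for 2, both higher, where 32.5% of all tested genes had one, 24.4% higher. With 3 genes, nothing is read from this count. POR, the reductase that hands electrons to both heme oxygenases, had 20.6 ± 0.721 FPKM in control and 23.8 ± 1.54 with dopamine (limma adjusted p = 0.13, and 0.031 after the GC and length correction, where the log2 difference was 0.36). RNF139, a ubiquitin ligase for HMOX1 protein, had 4.38 ± 0.487 and 6.58 ± 1.43 FPKM (limma adjusted p = 0.11), a log2 difference of 0.52 that was 0.27 after the correction. HM13, a protease that cleaves HMOX1 in its membrane, had 55.5 ± 4.71 and 52.9 ± 3.35 FPKM, with overlapping groups. HMOX1, at 33.0 and 429 FPKM, was above POR in both groups, under HM13 in control and above it with dopamine.

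Among 12 regulators of HMOX1 transcription none was called by limma, while 4 had an unadjusted p under 0.05, 3 higher and 1 lower, where 32.5% of all tested genes did, 24.4% higher and 8.05% lower. NFE2L2, which encodes the activator NRF2, had 4.64 ± 1.30 FPKM in control and 6.84 ± 0.782 with dopamine (limma adjusted p = 0.11), and KEAP1, its inhibitor, had 23.5 ± 0.125 and 23.5 ± 2.38 FPKM. Of the small MAF partners of BACH1 and NRF2, MAFG had 16.0 ± 0.183 and 18.3 ± 1.59 FPKM, MAFF 2.89 ± 0.192 and 2.7 ± 0.26, and MAFK 4.69 ± 0.305 and 4.07 ± 0.425. The log2 difference of NFE2L2 was 0.54 as deposited and 0.31 with the correction, and those of KEAP1, MAFG, MAFF and MAFK moved from -0.00, 0.19, -0.08 and -0.19 to 0.14, 0.29, 0.08 and -0.02. FBXO22, part of a ubiquitin ligase for BACH1, had 5.38 ± 0.419 and 6.99 ± 0.760 FPKM, a log2 difference of 0.35 that turned to -0.08 after the GC and length correction. HIF1A, the hypoxia factor, had the largest difference of the list, 0.63 (SE 0.21), with 13.9 ± 4.19 and 21.4 ± 4.57 FPKM and overlapping groups, and 0.19 after the correction. The remaining regulators were the heat shock factor HSF1 with 23.3 ± 0.857 and 20.5 ± 2.21 FPKM, the stress factor ATF4 with 43.3 ± 1.23 and 47.5 ± 1.93, USF1 with 20.7 ± 0.721 and 20.9 ± 2.83, USF2 with 24.6 ± 1.04 and 21.0 ± 1.02, and the AP-1 subunit JUND with 53.8 ± 1.07 and 46.6 ± 5.70. The log2 differences of HSF1, ATF4, USF1, USF2 and JUND were -0.19, 0.13, 0.00, -0.22 and -0.21 as deposited and -0.01, 0.21, 0.04, -0.09 and -0.02 after the correction.

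Heme transport and sensing gave no call by limma either. Of 13 tested genes of heme and porphyrin transport and mitochondrial support, 5 had an unadjusted p under 0.05, 4 higher and 1 lower, and none was called. The shares over all tested genes are those given for the regulators. PGRMC2, a heme chaperone with the smallest p of the list, had 10.7 ± 1.00 FPKM in control and 13.6 ± 1.37 with dopamine. PGRMC1, a heme-binding membrane protein, had 19.9 ± 3.86 and 25.4 ± 2.48 FPKM, and the mitochondrial carrier SLC25A39 48.4 ± 2.77 and 41.7 ± 3.77. Among 5 tested heme sensors, NPAS2, a circadian factor that binds heme, had 8.41 ± 0.178 FPKM in control and 6.80 ± 0.315 with dopamine (limma adjusted p = 0.11), and the heme-bound repressor NR1D1 had 5.69 ± 1.04 and 4.26 ± 0.488. Its relative NR1D2 had 2.12 ± 0.666 and 2.87 ± 0.732 FPKM, and the heme-regulated kinase EIF2AK1 41.0 ± 4.29 and 45.5 ± 3.68. After the correction the log2 differences of PGRMC2, PGRMC1 and SLC25A39 were 0.15, 0.10 and -0.09 instead of 0.33, 0.36 and -0.21, and those of NPAS2, NR1D1, NR1D2 and EIF2AK1 were -0.42, -0.24, -0.04 and -0.04 instead of -0.29, -0.37, 0.38 and 0.15. With NPAS2 and NR1D1 the dopamine libraries were all under the control libraries, as they were for 14.1% of all tested genes.

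Iron, which heme breakdown releases, is stored in ferritin and taken up through the transferrin receptor. Of 10 tested iron genes, 5 had a higher mean with an unadjusted p under 0.05, none a lower one, and none was called by limma, where 24.4% of all tested genes were higher at that p. FTH1 is given above. TFRC, the transferrin receptor, had 5.94, 5.04 and 3.38 FPKM in control and 7.13, 7.70 and 10.0 FPKM with dopamine, groups that did not overlap. NCOA4, the receptor for ferritin breakdown, had 20.5 ± 3.23 and 30.1 ± 4.41 FPKM, and IREB2, an iron regulatory protein, 2.30 ± 0.752 and 3.31 ± 0.546. The log2 difference of TFRC was 0.75 as deposited and 0.39 after the correction, and that of IREB2 was 0.47 and 0.05. The list's median difference was 0.31 as deposited and 0.03 with the correction for GC and length, the latter over the 9 of its 10 genes with a GC value.

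The genes beside HMOX1 on chromosome 22, plotted by distance, had small differences. Within 500 kb the table lists 10 genes, 7 of them protein-coding, of which 5 were tested and none was called by limma. HMGXB4, which ends 84.6 kb before HMOX1, differed by 0.21 (SE 0.12) on the log2 scale, and by -0.11 after the GC and length correction, and TOM1, 32.4 kb before it, by 0.00 (SE 0.12) and 0.15. MCM5, a replication helicase subunit that starts 5.85 kb after HMOX1, had 19.7 ± 1.65 FPKM in control and 16.9 ± 0.702 with dopamine, a difference of -0.21 (SE 0.09, limma adjusted p = 0.14) that was -0.12 after the correction. RASD2 and RBFOX2, 147 and 345 kb after it, differed by 0.08 (SE 0.10) and 0.29 (SE 0.11), and by 0.23 and 0.07 after the correction. The untested MB, which encodes the heme protein myoglobin, had 0.355 ± 0.0596 and 0.372 ± 0.0698 FPKM, and APOL6 0.438 ± 0.0613 and 0.513 ± 0.0561.

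**Figure D5:**
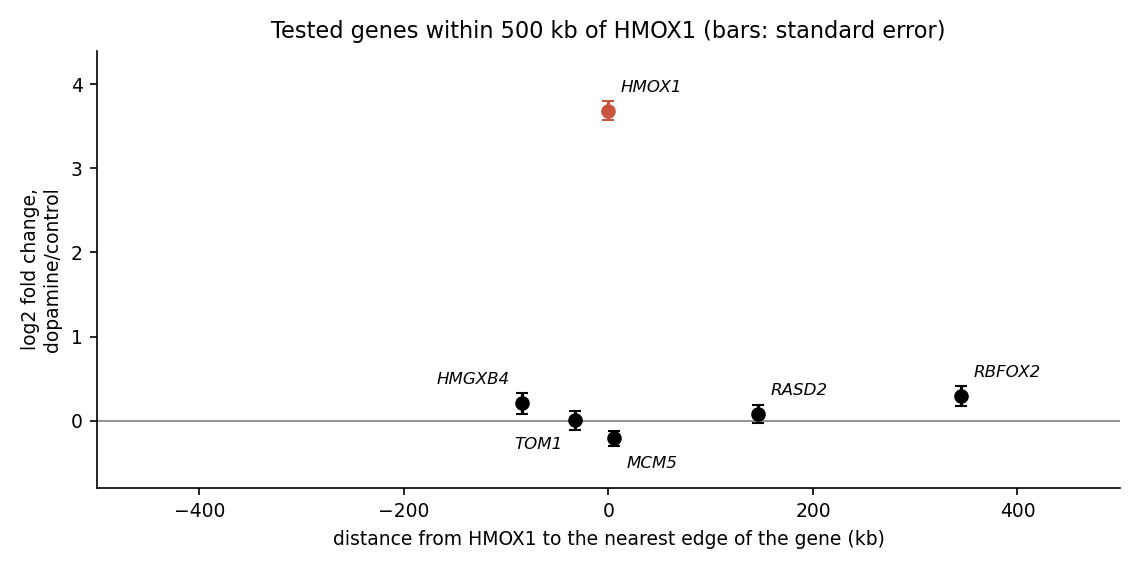
Log2 fold change of dopamine against control (vertical axis) of HMOX1 and the 5 tested genes within 500 kb, by the distance in kb from HMOX1 to the nearest edge of each gene (horizontal axis). Bars are 1 standard error; HMOX1 lies at 3.69 and its neighbours between -0.21 and 0.29.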

How the data were processed

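Total RNA of 6 SK-N-SH samples was depleted of ribosomal RNA and made into stranded libraries, per the labels' protocols. The deposited table gives FPKM for 26789 genes, with hg19 coordinates. The submitters' processing notes name HTSeq 0.11.2, STAR 2.7.1a, DESeq2 1.40.2, FastQC 0.11.9 and hg19, without saying what each was used for. No source used here gives the gene annotation, the strand setting of the counting or the way FPKM was made.

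Library totals were recovered from 2797 pseudogenes with spans of 150 to 1500 bases, whose low values move in steps of 1 fragment (93.7 to 94.7% whole within 0.03). With these totals the members' values were whole fragments to within 0.0058. FPKM divides by library total, so abundant genes that rise lower the others. Errors computed from fragments cover counting only, since reads without molecular identifiers are not independent molecules.

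Values were analysed as log2(FPKM + 0.5), which understates the change of low genes, for the 11791 genes with a mean of at least 1 FPKM. Groups, from the sample titles, were tested by limma (version 3.58.1, R 4.3.3; intensity trend, two-sided, Benjamini-Hochberg threshold 0.05, no replicate block). On simulated data with 11791 genes, 58.2% of 67 genes changed 1.5-fold, 92.5% of 67 changed 2-fold and 100% of 66 changed 4-fold were recovered, with 9 false calls. Alternative settings (17) varied pseudocount, filter, scaling, trend, weights, block, GC and length correction, and left out each library. After seeing the data, 2 were added: leaving out both libraries numbered 3, and voom on the recovered fragments. GC content came from the longest GENCODE v29 transcript of each gene.

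The members and gene lists were chosen with earlier results of these data known. Named genes were all members, every measured gene of the lists of other synthesis steps, partners and regulators, up to 4 genes with the smallest p of each other heme list, the coding genes within 500 kb of HMOX1, and the 5 coding genes nearest its profile. Further genes were named as markers or as overlapping a member. Genes of the lists that the table did not hold were not analysed here. Some genes that this rule names are not reported here.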

Additional observations from a re-analysis of the deposited data

How the results depend on the processing

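The number of called genes, 12 over all tested genes, was 6 with no filter, 27 with quantile normalization, 5 with no trend, 2706 with sample quality weights, 26 after the GC and length correction, 7 without both libraries numbered 3, and 3 to 2177 when 1 library was left out, the highest without control replicate 1. Called members numbered 4 with quality weights and 1 to 3 with 1 library left out. Other heme genes called, 2 in the report, were 0 with no filter (24 at an unadjusted p of 0.05, limma), 3 with median-of-ratios scaling, 4 with quantile normalization, 1 with no trend, 22 with quality weights, 4 after the GC and length correction, 3 with voom, and 0 to 13 with 1 library left out. The causes were not tested.

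With the replicate number as a block, 3 genes were called over all, 1 member and 0 other heme genes (18 at an unadjusted p of 0.05, limma). Deviations from the group means of same-numbered samples correlated at -0.20, 0.28 and -0.37, and 2 of 6 samples correlated best with their own number, so the numbers were not taken to pair the samples.

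Some log2 differences near 0 changed sign. FLVCR1 was -0.0239 with quantile normalization and -0.17 after the GC and length correction. HMOX2 was 0.0548 after that correction, 0.0096 without both libraries numbered 3 and -0.079 to 0.0061 with 1 library left out. BLVRB was 0.0049 with TPM scaling, 0.0211 with quality weights, 0.0919 after the correction, 0.048 without both libraries numbered 3, and -0.0618 to 0.0578 with 1 library left out. UROD was -0.1592 to 0.0014 with 1 library left out, above 0 without control replicate 2.

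The FPKM of genes that overlap others (HMOX2, BACH1, CPOX) is uncertain. At 3 samples per group, 58.2% of simulated 1.5-fold changes were recovered, and the members other than HMOX1 mostly differed by less. That share was given by size of change only, not by expression level. Whether it holds at the low levels of BACH1 and FLVCR1, or for libraries that differ in base composition as these did, was not tested. It is therefore not read as the chance of a call for any member.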
